A study of Mus musculus with 9 samples.

Results

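Mitochondrial ribosomal proteins build the ribosome that works inside mitochondria. Their genes were taken as every entry of the deposited mouse liver table whose symbol is Mrpl (large subunit) or Mrps (small subunit) followed by a number and, in some, a letter. This gave 77 genes of 35275 entries, 48 named for the large and 29 for the small subunit. A further 4 symbols with a pseudogene suffix were left out, and none of them had more than 24 counts in any library.

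The livers came from C57BL/6 mice in 3 groups of 3 libraries. The vehicle group received PBS. A second group received AdipoRon, a synthetic compound that activates the receptors of the hormone adiponectin, and the remaining group received AdipoRonPEG5, a PEGylated analog of it, that is, one carrying polyethylene glycol. Injections were given 2 times a day for 5 days, and the labels write 5 mg/kg for both compounds in a phrase that covers PBS too, which leaves the doses of the compounds uncertain. Age, sex and diet of the animals are not stated in the labels used here, nor is it stated that the libraries of a group came from separate animals. If they did not, the p-values measure only technical spread.

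The mitochondrial ribosome translates the few proteins that mitochondrial DNA still encodes, all of them membrane subunits of the respiratory chain and the ATP synthase. Its RNA comes from the mitochondrial genome, whereas every one of its proteins is encoded in the nucleus, made in the cytosol and imported. Many of these proteins have a counterpart in bacterial ribosomes and others exist only in mitochondria. Hepatocytes hold many mitochondria and use them for fatty acid oxidation, the urea cycle and gluconeogenesis.

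Library totals lay between 13942322 and 18508950 counts, except for 39473195 in vehicle 1. The 10 hepatocyte markers together held 88039 to 103915 CPM (counts scaled to library size, here by the TMM method) in vehicle, 77733 to 87833 in AdipoRon and 83215 to 92100 in AdipoRonPEG5 libraries, so that every AdipoRon library lay below every vehicle library. Their median log2 fold change against vehicle was -0.18 with AdipoRon, with 7 of 10 below 0 and 0 called, and -0.22 with AdipoRonPEG5, with 8 of 10 below 0 and 4 called lower. Of 12 macrophage and Kupffer cell markers, 12 rose with AdipoRonPEG5 and 11 with AdipoRon against vehicle. None of the 12 was at 0 in any group, and their summed level was 203 to 294 CPM in vehicle, 490 to 859 CPM with AdipoRon and 781 to 790 CPM with AdipoRonPEG5. Of 10 cell cycle genes tested, 7 rose with AdipoRonPEG5 and 3 with AdipoRon. Of 7 lymphocyte markers tested, 3 rose and 1 fell with AdipoRonPEG5 and 2 rose with AdipoRon. Of 9 stellate cell and fibroblast markers, 1 rose with AdipoRonPEG5 (median 0.60) and 0 were called with AdipoRon (median 0.43, 9 of 9 above 0). Over all genes tested, 9.55% were called higher and 7.63% lower with AdipoRonPEG5, and 3.8% and 1.4% with AdipoRon. The part of this cell mixture in the results below was not tested. In whole tissue, fewer cells of a type and less RNA per cell cannot be told apart.

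Of the 77 genes, 76 had enough counts to be tested, 47 of the large and 29 of the small subunit. Mrpl53 was listed at 0 in all 9 libraries. The lowest count of any tested member in any library was 81. Because levels of different genes can be compared only per length, CPM were divided by the gene length implied by the deposited FPKM. On this scale Mrpl52, a large-subunit protein specific to mitochondria, was highest at a mean of 129 CPM per kilobase over all libraries. It was followed by Mrps21 at 75.3, Mrpl2 at 74.5 and Mrpl42 at 68.6 CPM per kilobase. These ranks depend on the length used: the implied length of Mrpl52 is 412 bases, where its exons in GENCODE release M21 cover 1109. For Mrps21 the 2 lengths are 714 and 739 bases. At the other end stood Mrpl19 at 2.36, Mrps25 at 2.56, Mrpl47 at 3.45 and Mrpl3 at 5.59 CPM per kilobase. Within a group a member varied little: the median coefficient of variation was 6.45% in vehicle, 6.21% in AdipoRon and 5.32% in AdipoRonPEG5 livers. It was 7.98%, 7.29% and 7.12% over those of the 13151 genes tested whose mean CPM passed a further floor. That floor was not applied to the members.

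The summed mRNA of all members was lowest in the AdipoRon livers. The sum was 2764, 2782 and 2826 CPM in vehicle 1 to 3, 2328, 2454 and 2529 CPM in AdipoRon 1 to 3, and 2751, 2718 and 2723 CPM in AdipoRonPEG5 1 to 3. All 3 AdipoRon libraries lay below the 6 others, and the AdipoRonPEG5 libraries lay below the vehicle libraries by a small margin. The group means were 2790 ± 31.7, 2437 ± 102 and 2731 ± 17.7 CPM (SD, n = 3). As a share of all counts, without TMM scaling, the members took 0.262% to 0.272% in vehicle, 0.241% to 0.258% in AdipoRon and 0.269% to 0.283% in AdipoRonPEG5 libraries. On that scale AdipoRon again lay below vehicle in every library, whereas AdipoRonPEG5 overlapped vehicle and reached above it.

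**Figure D1:**
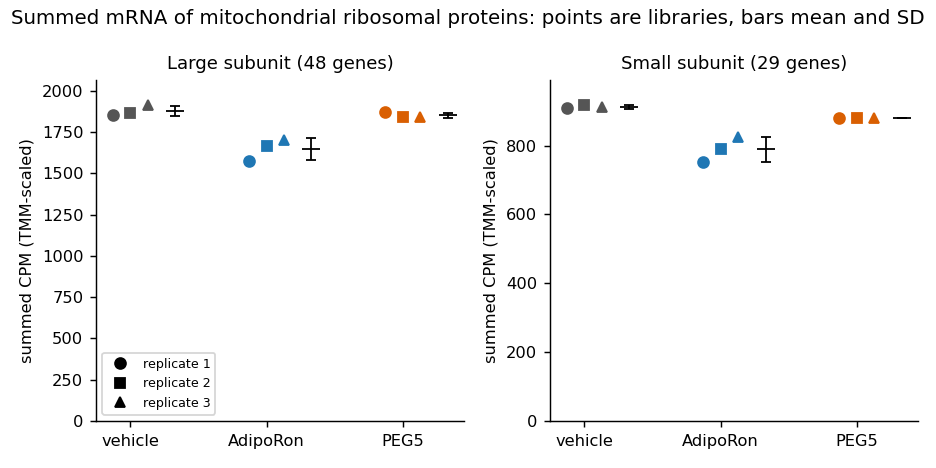
Summed CPM of the large-subunit members (left) and small-subunit members (right) in each of 9 libraries, on linear axes from 0. Points are libraries and the bar beside each group is the mean with its SD. The AdipoRon libraries are below all others in both subunits.

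Both subunits had the same order of group means. Large-subunit members summed to 1878 ± 31.2 CPM in vehicle, 1648 ± 66.2 CPM with AdipoRon and 1850 ± 16.7 CPM with AdipoRonPEG5 (SD, n = 3). Small-subunit members summed to 913 ± 4.97, 789 ± 35.8 and 880 ± 1.28 CPM (SD, n = 3). The symbols do not follow the structure in every case: Mrps30 and Mrps18a are named for the small subunit but are built into the large one, and Mrps36 is known as a part of the oxoglutarate dehydrogenase complex. The AdipoRon group was the lowest of the 3 group means for 59 of 76 members, AdipoRonPEG5 for 15 and vehicle for 2. Over all genes tested these shares were 27.3%, 36.9% and 35.8%. For 26 members, 3.95% of all genes tested doing so, every AdipoRon library lay below every library of both other groups.

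The first comparison asked how liver mRNA differed between AdipoRon and vehicle. In edgeR's quasi-likelihood test, 7 of 76 members fell and none rose at a Benjamini-Hochberg adjusted p of 0.05 (called below), where 5.2% of all genes tested were called, 3.8% higher and 1.4% lower. The log2 fold changes of the 7 lay between -0.37 and -0.27. At an unadjusted p of 0.05, 36 members were lower and 0 higher, against 9.39% and 12.5% of all genes. The log2 fold change was below 0 for 73 of 76 members, against 48.9% of all genes (51.1% were above 0). Its median was -0.18 over the members, a difference of 12%, and 0.01 over all genes. The hepatocyte markers had a median of -0.18 as well, and their part in this result was not tested. Vehicle and AdipoRon libraries did not overlap for 40 members, all lower with AdipoRon, where 12.4% of all genes were lower and 14.4% higher without overlap. Total-count scaling moved the median of all genes to 0.10 and that of the members to -0.087, with 0 members called and 61 of 76 below 0. Under it 883 of all genes were called higher and 64 lower, against 500 and 184 with TMM.

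Among the members that fell with AdipoRon, Mrps16 had the largest change. This small-subunit protein has a bacterial counterpart, and its loss in humans causes a disease of combined respiratory chain deficiency. Mrps16 was at 32.2, 31.5 and 30.5 CPM in vehicle, 22.5, 24.5 and 25.9 CPM with AdipoRon and 27.8, 27.7 and 28.9 CPM with AdipoRonPEG5. The 3 groups did not overlap, with AdipoRonPEG5 between the others. The log2 fold change against vehicle was -0.37 ± 0.076 (SE, edgeR adjusted p = 0.0219) with AdipoRon. With AdipoRonPEG5 it was -0.16 ± 0.076, which did not pass (adjusted p = 0.175). Mrps26, a small-subunit protein specific to mitochondria, was at 33.4, 29.5 and 33.8 CPM in vehicle and 25.5, 25.4 and 25.8 CPM with AdipoRon, and fell by 0.33 on the log2 scale (SE 0.075, edgeR adjusted p = 0.0301).

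The large-subunit proteins Mrpl34 and Mrpl14 both have bacterial counterparts, and Mrpl14 sits at the face that meets the small subunit. Mrpl34 was at 48.4, 49.0 and 51.0 CPM in vehicle, 34.7, 40.0 and 41.3 CPM with AdipoRon and 40.3, 39.8 and 40.9 CPM with AdipoRonPEG5. It fell against vehicle with AdipoRon (log2 fold change -0.35 ± 0.078 (SE), edgeR adjusted p = 0.0275) and with AdipoRonPEG5 (-0.29 ± 0.077, adjusted p = 0.0249), and was the only member called lower in both comparisons, which share the vehicle libraries. Mrpl14 was at 46.9, 47.2 and 44.3 CPM in vehicle and 35.4, 37.2 and 36.5 CPM with AdipoRon, a fall of 0.34 on the log2 scale (SE 0.074, edgeR adjusted p = 0.026). In the annotation 11.2% of the exon bases of Mrpl14 lie under Tmem63b on the opposite strand. The other members that fell, Mrpl15, Mrpl42 and Mrpl51, changed by -0.29, -0.28 and -0.27 (edgeR adjusted p = 0.0432, 0.0451 and 0.0468), and none of their AdipoRon libraries reached the lowest vehicle library.

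Mrpl47 had the largest difference of all members with AdipoRon and did not pass edgeR's test. Its level was 15.2, 14 and 13 CPM in vehicle, 10.7, 10.7 and 9.50 CPM with AdipoRon and 11.7, 11.5 and 8.2 CPM with AdipoRonPEG5. The log2 fold change was -0.46 with AdipoRon (95% interval -0.77 to -0.14, edgeR adjusted p = 0.0893) and -0.43 with AdipoRonPEG5 (-0.74 to -0.12, adjusted p = 0.06). The difference with AdipoRonPEG5 did pass with DESeq2 (adjusted p = 0.0453), limma-voom (0.0388), the length trend removed (0.0257) and without vehicle 3 and AdipoRonPEG5 1 (0.0497). That with AdipoRon passed with the length trend removed (adjusted p = 0.0453) and without AdipoRonPEG5 3 (0.0414). Mrpl47 is also a member of low level, and 24.2% of its exon bases lie under other genes on the opposite strand, among them Ndufb5. Mrps11 at -0.35 (edgeR adjusted p = 0.0702) and Mrpl36 at -0.34 (adjusted p = 0.076) were the other 2 of the 6 lowest that did not pass. At the upper end, Mrps22, Mrpl39 and Mrpl1 had log2 fold changes of 0.04, 0.03 and 0.01 and were the 3 members above 0. Mrpl16 (-0.01), Mrpl38 (-0.04) and Mrpl19 (-0.06) came next, all with intervals that include 0. No member's 95% interval reached beyond a log2 fold change of -0.77 (Mrpl47) or 0.24 (Mrpl35).

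**Figure D2:**
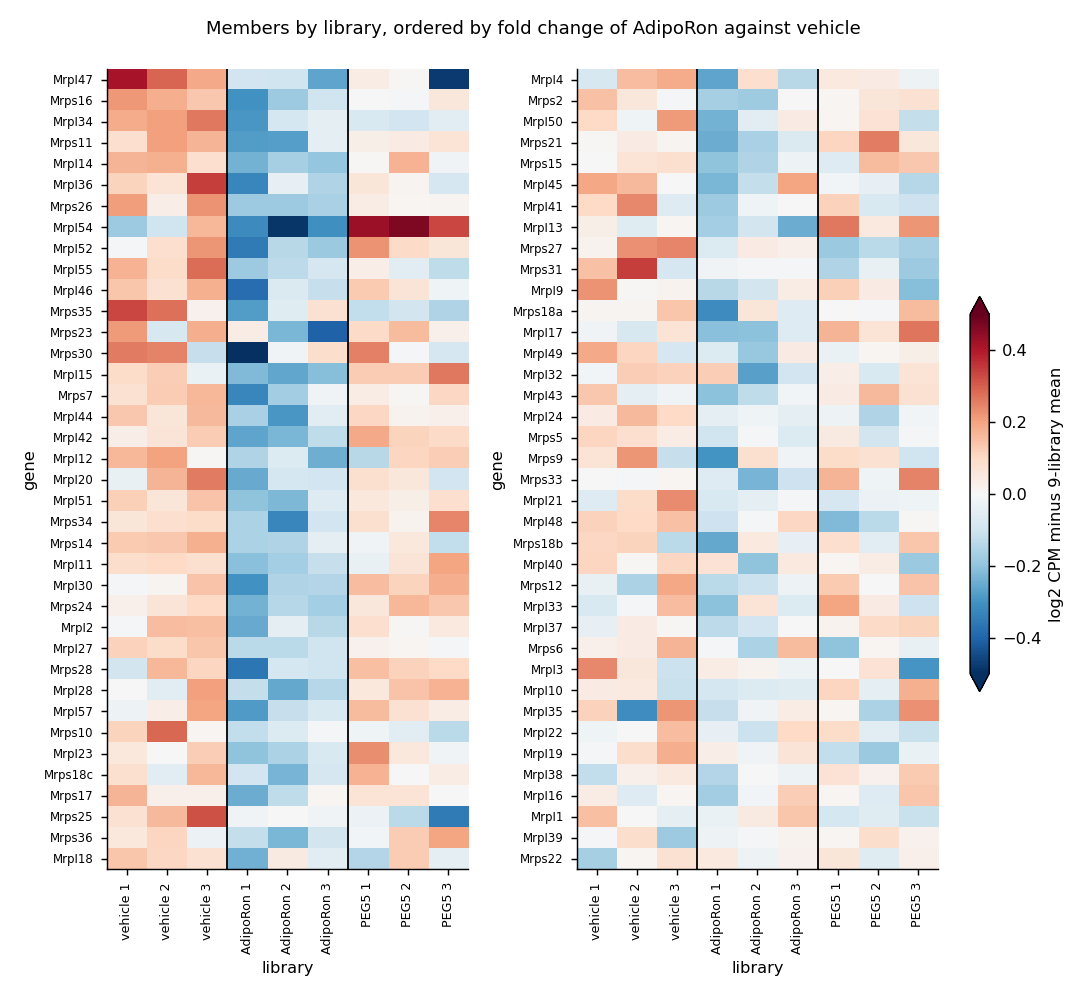
Colour map of the 76 tested members (rows) in 9 libraries (columns), as log2 CPM minus the gene's mean over the 9 libraries; colours saturate at 0.5 in either direction. Members are ordered by their log2 fold change of AdipoRon against vehicle, lowest at the top left. Blue prevails in the AdipoRon columns, most of all in AdipoRon 1, which held the lowest value of 39 members.

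The 3 AdipoRon libraries were not alike in this. Of 76 members, 39 had their lowest value of all 9 libraries in AdipoRon 1, 15 in AdipoRon 2 and 3 in AdipoRon 3. The summed macrophage markers ran the other way, at 859, 568 and 490 CPM in AdipoRon 1 to 3. In AdipoRonPEG5 these markers were at 781 to 790 CPM in every library while the members summed to 2718 CPM or more. The part of macrophages in the member levels was not tested. Without AdipoRon 1 the median log2 fold change of the members was -0.16 and 0 members were called. Without AdipoRon 2, or without vehicle 1, 0 were called as well, and without vehicle 2 it was 1, while the median stayed between -0.22 and -0.16 whichever library was left out.

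Gene length moved with this comparison, and 26 of the 76 members but 1099 of 13151 genes tested were at most 1056 bases long. Across genes, the slope of a library's log2 CPM, relative to the gene's mean over all 9 libraries, on log2 gene length was 0.030 to 0.065 in AdipoRon libraries, -0.052 to -0.019 in vehicle and -0.040 to 0.015 in AdipoRonPEG5 libraries. In the 26 shortest members (412 to 1056 bases) the median log2 fold change of AdipoRon against vehicle was -0.24. It was -0.19 over all 1099 tested genes of at most 1056 bases, a range without a lower limit. In the 25 members of middle length the values were -0.16 and -0.079. In the 25 longest (up to 6073 bases) they were -0.16 and 0.047, the latter over all 8931 tested genes longer than 2220 bases. The gap was widest there, but that range of all genes had no upper limit, so that lengths were not matched. The split by length was chosen after values were seen. With a length trend removed from each library and the library scaling left as it was, a form chosen after seeing the data, 2 members were called lower, the median was -0.10, and 64 of 76 stayed below 0. With the trend removed as it was fitted, which also shifts whole libraries, 9 were called lower and the median was -0.18, where the median of all genes moved to -0.076. The part of gene length and that of treatment cannot be told apart in these libraries.

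**Figure D3:**
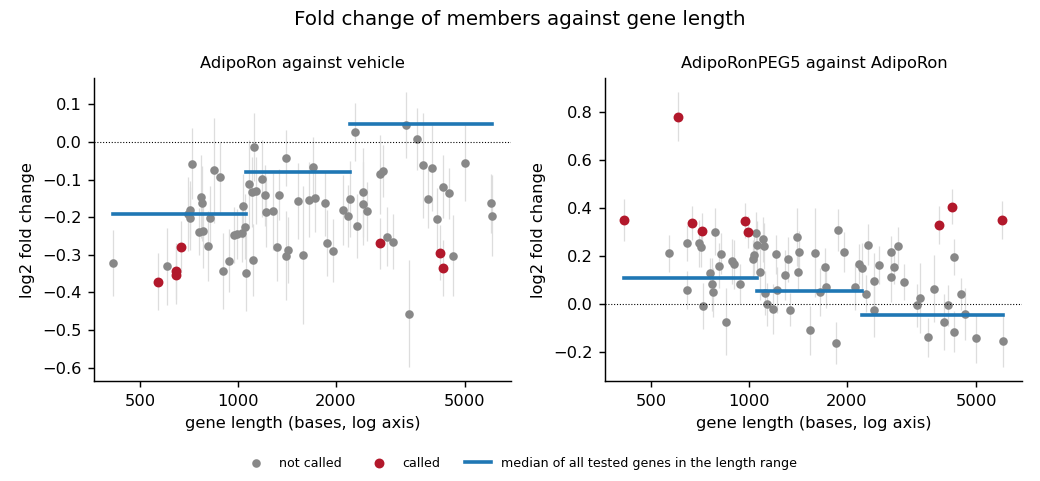
Log2 fold change of each tested member, with its SE, against gene length in bases (log axis), for AdipoRon against vehicle (left) and AdipoRonPEG5 against AdipoRon (right). Red points passed the test, grey points did not, and blue bars are medians of all tested genes over 3 length ranges. The bars are drawn over the members' lengths, while the shortest range of all genes had no lower limit and the longest no upper limit. On the left most members in the longest range lie below the blue bar of 0.047.

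Promoter sequence came from RefSeq on build GRCm38.p6, in windows from 250 bases before to 50 bases after a start, and 68 members had at least 1 window, 74 in all. The stretches below belong to 5 of the members that fell in a comparison with vehicle. Each is at most 100 bases of upstream sequence free of annotated exons, up to the base before the start, or ending 104 bases before it in Mrps26. They are shown as upstream sequence of members called lower with AdipoRon alone (Mrps16, Mrps26, Mrpl42), with AdipoRonPEG5 alone (Mrps27) or with both (Mrpl34), 5′ to 3′ on the strand of the gene, and capitals mark a match to a motif searched on both strands. The motifs were the ETS core CCGGAAG, the YY1 core AAGATGGC, the palindromic NRF1 core, the E-box CACGTG and the GC box GGGCGG. The motifs and the members shown were chosen after values were seen. Mrps16 is at chr14:20393635-20393734 (minus strand), Mrpl34 at chr8:71464826-71464925 (plus), Mrps26 at chr2:130563554-130563653 (plus), Mrpl42 at chr10:95501950-95502049 (minus) and Mrps27 at chr13:99344706-99344785 (plus).
Mrps16: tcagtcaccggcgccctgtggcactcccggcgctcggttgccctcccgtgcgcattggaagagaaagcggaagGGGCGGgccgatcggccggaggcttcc
Mrpl34: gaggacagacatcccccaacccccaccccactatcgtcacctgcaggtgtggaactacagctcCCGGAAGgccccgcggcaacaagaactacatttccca
Mrps26: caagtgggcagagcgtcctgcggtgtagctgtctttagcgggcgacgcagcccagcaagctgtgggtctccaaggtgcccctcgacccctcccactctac
Mrpl42: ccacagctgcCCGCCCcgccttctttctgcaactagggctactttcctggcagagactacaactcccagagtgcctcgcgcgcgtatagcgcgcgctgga
Mrps27: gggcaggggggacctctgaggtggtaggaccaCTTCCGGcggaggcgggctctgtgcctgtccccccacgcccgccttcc

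Mrpl34, which fell with both compounds, holds the ETS core CCGGAAG in its stretch, and Mrps27 holds it on the opposite strand as CTTCCGG. Outside the printed stretches the ETS core was also in the window of Mrps26 and in a window of Mrps16, but not in that of Mrpl42. Over whole windows, the ETS core was in 33.8% of the 74 member windows and in 16.6% of 11946 windows of protein-coding genes tested. The YY1 core was in 16.2% and 4.29%, and the NRF1 core in 4.05% and 2.05%. The E-box was in 9.46% and 9.68% and the GC box in 52.7% and 60.5%. These shares are over windows, not genes, and overlapping windows of a gene each count. Those of Mrpl2, for example, all held the same E-box and GC box letters. The ETS and YY1 cores can share 3 bases, and 0 member windows held them joined in that way. These are matches of letters in windows of 300 bases, and no binding was measured. By GENCODE release M21, 33 of the 77 members start within 1000 bases of the start of a protein-coding gene read in the opposite direction. That distance is longer than a window, and the share over all genes was not taken. Mrps11 and Mrpl46, with log2 fold changes of -0.35 and -0.31 with AdipoRon, are such a pair, and their windows overlap. Neither passed (edgeR adjusted p = 0.0702 and 0.0827). Mrpl46 was chosen after its values were seen.

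The comparison of AdipoRonPEG5 with vehicle, which asked about the PEGylated compound, gave smaller differences for the group as a whole. In edgeR's test 1 of 76 members rose and 4 fell, where 17.2% of all genes tested were called, 9.55% higher and 7.63% lower. The share of members called was thus below that of all genes. The median log2 fold change was -0.06 over the members and -0.001 over all genes, and 47 of 76 members were below 0, against 50.1% of all genes (49.9% were above 0). At an unadjusted p of 0.05, 3 members were higher and 11 lower, against 16.3% and 15.1% of all genes. Libraries of the 2 groups did not overlap for 18 members that were lower and 4 that were higher, where 17% and 18.2% of all genes did so. With total-count scaling, which moved the median of all genes to 0.081, the median of the members was 0.021, 32 were below 0 and 3 were called, all higher. Under it 1700 of all genes were called higher and 584 lower, against 1256 and 1004 with TMM. Without vehicle 2, or without AdipoRonPEG5 2, 0 members were called, and the count was 1 without AdipoRonPEG5 3, 2 without AdipoRonPEG5 1 and 3 without vehicle 3 or without AdipoRon 2.

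Mrpl54, a large-subunit protein specific to mitochondria, was the only member that rose. It was at 23.2, 24.5 and 29.5 CPM in vehicle, 21.1, 18.8 and 21.3 CPM with AdipoRon and 35.4, 36.3 and 33.1 CPM with AdipoRonPEG5. The 3 groups did not overlap, and the AdipoRonPEG5 libraries were the highest. Mrpl54 was 1.36-fold higher with AdipoRonPEG5 than in vehicle (log2 fold change 0.45 ± 0.10 (SE), edgeR adjusted p = 0.0117), a call that was lost without vehicle 2 or without AdipoRonPEG5 2 (adjusted p up to 0.0524). With AdipoRon the log2 fold change was -0.33 (95% interval -0.56 to -0.10, edgeR adjusted p = 0.0873). In the annotation its exons share no bases with another gene of the deposited table. Next highest with AdipoRonPEG5 against vehicle were Mrpl13 (log2 fold change 0.19), Mrpl17 (0.18), Mrps33 (0.14), Mrps21 (0.12) and Mrpl15 (0.11), none called in edgeR's test.

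Besides Mrpl34, the members that fell with AdipoRonPEG5 were the small-subunit proteins Mrps27, Mrps25 and Mrps35, all specific to mitochondria. Mrps27, which carries pentatricopeptide repeats as RNA-binding proteins of organelles do, was at 21.3, 24.6 and 24.8 CPM in vehicle, 19.99, 21.6 and 21.3 CPM with AdipoRon and 18.4, 19.1 and 18.7 CPM with AdipoRonPEG5. Its log2 fold change with AdipoRonPEG5 was -0.32 ± 0.087 (SE, edgeR adjusted p = 0.0274). Mrps25 was at 16.3, 17.3 and 19.3 CPM in vehicle and 15.1, 14.1 and 12.1 CPM with AdipoRonPEG5, with a log2 fold change of -0.35 ± 0.107 (edgeR adjusted p = 0.0462). Mrps35 was at 32.3, 31.0 and 26.0 CPM in vehicle and 23.5, 24.0 and 23.1 CPM with AdipoRonPEG5, with a log2 fold change of -0.34 ± 0.107 (edgeR adjusted p = 0.0499). In all 3 the AdipoRonPEG5 libraries lay below the vehicle libraries. Mrps31 was not called with AdipoRonPEG5 (-0.27, edgeR adjusted p = 0.0959). It passed without vehicle 3 (0.0179), without vehicle 3 and AdipoRonPEG5 1 (0.0475) and with the length trend removed (0.0468). With that trend removed Mrpl48 also passed with AdipoRonPEG5 (edgeR adjusted p = 0.0271), and Mrps35 passed with AdipoRon (0.0449). In the annotation 69.8% of the exon bases of Mrps25 lie under Nr2c2, and 24.2% of those of Mrps27 under another gene, both on the opposite strand. Whether the counting used strand is not known from the sources at hand, so that reads of these genes and their partners cannot be told apart.

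**Figure D4:**
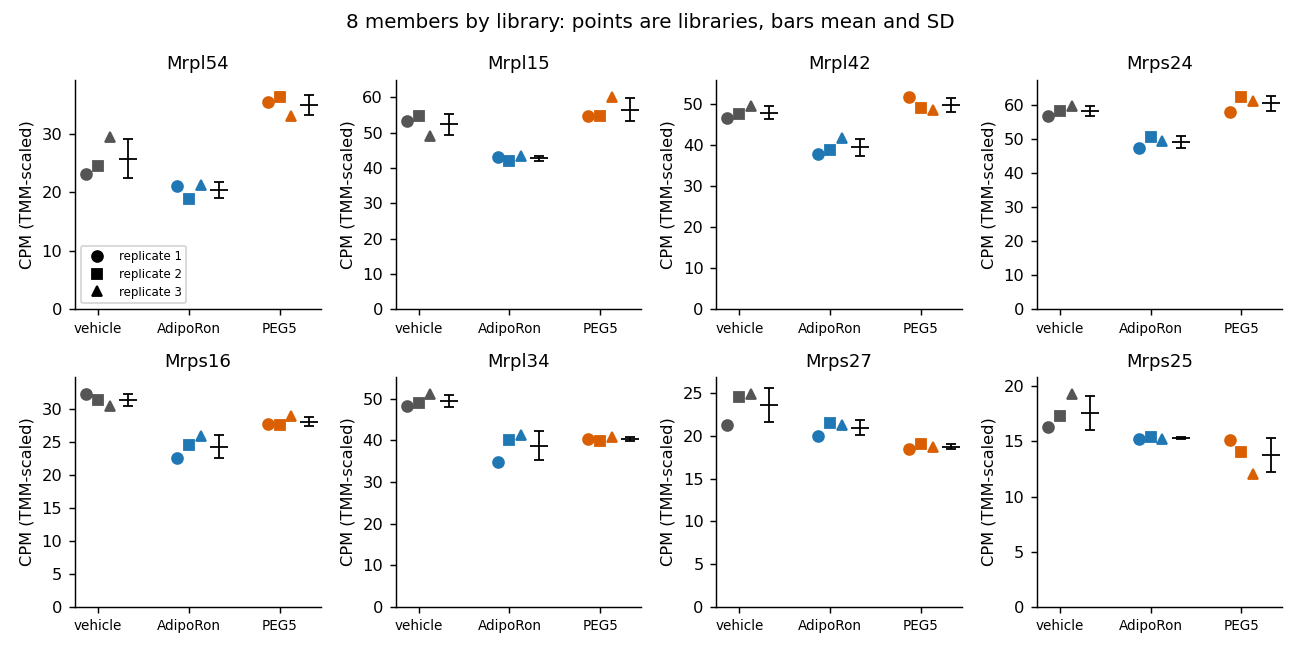
CPM of 8 members in 9 libraries on linear axes from 0. Points are libraries, and the bar beside each group is the mean with its SD. The members were chosen after values were seen; Mrpl54 is highest in AdipoRonPEG5, Mrpl15, Mrpl42 and Mrps24 are lowest in AdipoRon, Mrps16 and Mrpl34 are lower with both compounds than in vehicle, and Mrps27 and Mrps25 are lowest in AdipoRonPEG5.

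The PEGylated compound was then compared with its parent at the label's common dose and schedule, 1 pair of compounds with p-values adjusted over all genes tested. In edgeR's test 9 of 76 members were higher with AdipoRonPEG5 and none lower, where 5.39% of all genes tested were called, 2.68% higher and 2.71% lower. At an unadjusted p of 0.05, 31 members were higher and 0 lower, against 10.2% and 11.6% of all genes. The median log2 difference was 0.15 over the members and -0.01 over all genes, and 60 of 76 members were above 0, against 48% of all genes (52% were below 0). Libraries of the 2 groups did not overlap for 34 members that were higher and 5 that were lower with AdipoRonPEG5, where 13.9% and 14.3% of all genes did so. This comparison uses the same AdipoRon libraries as the comparison of AdipoRon with vehicle, so that the 2 are not independent of each other. The count of members called was 2 without AdipoRon 1, AdipoRonPEG5 1 or AdipoRonPEG5 3, 3 without AdipoRon 3 or AdipoRonPEG5 2, and 4 without AdipoRon 2, all of them higher.

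Mrpl54 differed most between the compounds, at 1.72-fold more with AdipoRonPEG5 (log2 difference 0.78 ± 0.10 (SE), 95% interval 0.56 to 1.003, edgeR adjusted p = 0.00274). Mrpl15, which has a bacterial counterpart in the large subunit, was at 53.4, 54.7 and 49.0 CPM in vehicle, 43.1, 41.9 and 43.3 CPM with AdipoRon and 54.7, 54.8 and 60.2 CPM with AdipoRonPEG5. The log2 difference of Mrpl15 between the compounds was 0.40 (95% interval 0.24 to 0.56, edgeR adjusted p = 0.0129). Both of these calls held in 22 of 22 alternative analyses, with adjusted p up to 0.0196 for Mrpl54 and 0.0476 for Mrpl15. In the same 22, the rise of Mrpl54 against vehicle was lost in 2, and every other call of a member in the 3 comparisons was lost in 6 to 16. Mrpl42, a large-subunit protein specific to mitochondria, was at 46.5, 47.5 and 49.5 CPM in vehicle, 37.8, 38.8 and 41.6 CPM with AdipoRon and 51.8, 49.1 and 48.6 CPM with AdipoRonPEG5, a log2 difference between the compounds of 0.34 (95% interval 0.18 to 0.49, edgeR adjusted p = 0.0219). Mrpl15 and Mrpl42 are the 2 members that were called both lower with AdipoRon than in vehicle and higher with AdipoRonPEG5 than with AdipoRon, calls that share the AdipoRon libraries.

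The other members called higher with AdipoRonPEG5 than with AdipoRon were 4 of the large subunit (Mrpl13, Mrpl17, Mrpl30 and Mrpl52) and 2 of the small (Mrps21 and Mrps24), with log2 differences of 0.30 to 0.35. Mrpl52, the member of highest level per kilobase of implied length, was at 41.4, 48 and 46.5 CPM with AdipoRon and 61.8, 56.5 and 55.1 CPM with AdipoRonPEG5 (log2 difference 0.35, edgeR adjusted p = 0.0437). Mrps24 was at 47.2, 50.4 and 49.5 CPM with AdipoRon and 57.9, 62.3 and 61.0 CPM with AdipoRonPEG5 (0.30, edgeR adjusted p = 0.0271). In Mrps24, 15.4% of the exon bases are shared with Urgcp on the same strand. Against vehicle none of these 6 was called in edgeR's test with either compound. In alternative analyses Mrpl52 was called lower with AdipoRon by DESeq2 (adjusted p = 0.0369) and with robust dispersion in edgeR (0.0488), and Mrpl13 with the length trend removed (0.0419). With total-count scaling Mrpl13 and Mrpl17 were called higher with AdipoRonPEG5 (edgeR adjusted p = 0.0392 and 0.031).

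For the rest the difference between the compounds was small or not resolved. The interval of the difference included 0 for 45 of 76 members, and its median width was 0.39 on the log2 scale. For Mrpl34, which fell with both compounds, the difference was 0.06 (95% interval -0.11 to 0.23), and for Mrpl47 it was 0.03 (-0.29 to 0.34). The lowest values belonged to Mrps27 (-0.16, 95% interval -0.35 to 0.03), Mrps25 (-0.15, -0.39 to 0.08), Mrpl19 (-0.14, -0.37 to 0.08), Mrpl1 (-0.14, -0.32 to 0.04), Mrpl48 (-0.11, -0.30 to 0.07) and Mrps31 (-0.11, -0.33 to 0.12), none of them called. Short genes, lower with AdipoRon than in vehicle, were higher with AdipoRonPEG5 than with AdipoRon. The median difference was 0.21 over the 26 shortest members and 0.11 over all tested genes of at most 1056 bases. It was 0.065 over the 25 longest members and -0.043 over all tested genes longer than 2220 bases, without an upper limit. With the length trend removed, 5 members were called higher in both forms of that analysis.

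**Figure D5:**
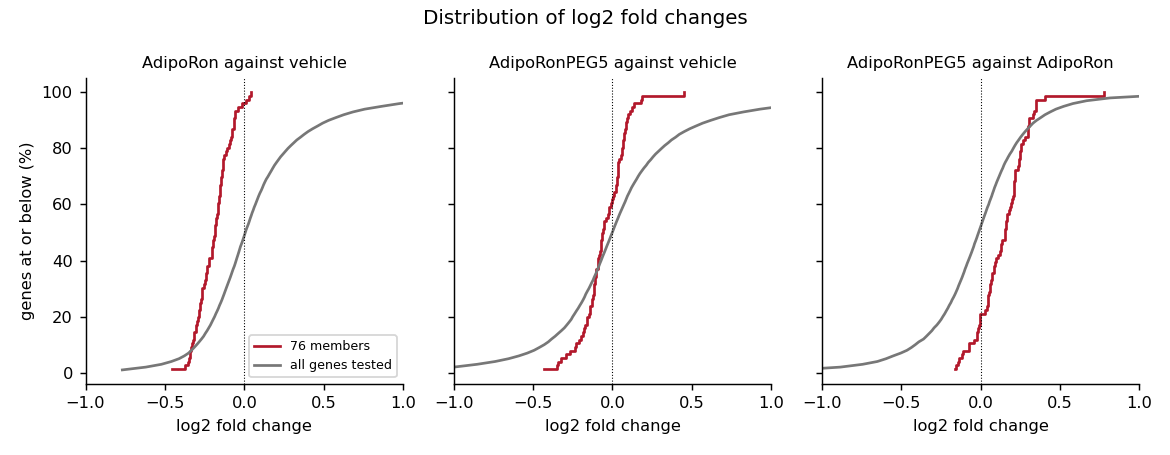
Cumulative share of genes (vertical axis, percent) at or below a log2 fold change (horizontal axis, shown from -1 to 1) for the 76 tested members in red and all 13151 tested genes in grey, in the 3 comparisons. The members' curve is left of the grey curve around its middle for AdipoRon against vehicle (medians -0.18 and 0.01), close to it for AdipoRonPEG5 against vehicle (-0.06 and -0.001), and right of it for AdipoRonPEG5 against AdipoRon (0.15 and -0.01).

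A split of the members by their numbers gave similar medians, which were not compared by a test. Members that keep a number used for bacterial ribosomal proteins (up to 36 in the large and 21 in the small subunit, a split chosen after values were seen) had median log2 fold changes of -0.18 with AdipoRon, -0.06 with AdipoRonPEG5 and 0.15 between the compounds, over 44 members. The 32 other tested members were at -0.21, -0.06 and 0.17. Numbers are a rough guide to origin, since Mrps24 and Mrpl47, for example, have bacterial counterparts under other numbers. The 3 forms of Mrps18, whose proteins occupy different places in the ribosome, were at 12.5 (Mrps18a), 12.5 (Mrps18b) and 38.8 (Mrps18c) CPM per kilobase. With AdipoRon their log2 fold changes were -0.15, -0.11 and -0.20, and with AdipoRonPEG5 they were 0.02 for Mrps18b and 0.01 for Mrps18c, with a 95% interval of -0.22 to 0.22 for Mrps18a, none called. Mrpl12, the stalk protein that recruits translation factors, was at 53.3, 54.5 and 47.6 CPM in vehicle, 42.8, 45.3 and 40.0 CPM with AdipoRon and 43.1, 51.0 and 51.6 CPM with AdipoRonPEG5 (log2 fold change with AdipoRon -0.28, 95% interval -0.48 to -0.08, edgeR adjusted p = 0.104). It was called lower with AdipoRon when vehicle 3 and AdipoRonPEG5 1 were both left out (-0.34, edgeR adjusted p = 0.0452). Mrps12, at the decoding centre, had values of -0.09 with AdipoRon and 0.09 with AdipoRonPEG5, and Mrps30 of -0.30 and -0.09, with no call.

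The other parts of mitochondrial translation were read from lists. Over the lists from here to protein import, the share called with AdipoRonPEG5 ran from 0% to 16.7%, where 17.2% of all genes tested were called. With AdipoRon the share ran from 0% to 11.8%, where 5.2% of all genes were called. Between the compounds it ran from 0% to 11.1%, where 5.39% of all genes were called. Of 6 mitoribosomal proteins with other names, Chchd1, a small-subunit protein, fell with AdipoRonPEG5 (log2 fold change -0.24, edgeR adjusted p = 0.0468), none was called with AdipoRon or between the compounds, and the medians were -0.19 with AdipoRon and -0.09 with AdipoRonPEG5. Of 28 genes of ribosome assembly and rRNA modification, 2 fell and 1 rose with AdipoRonPEG5: Mettl17 (-0.47, edgeR adjusted p = 0.0124), a factor that binds the small subunit, Mtg2 (-0.39, adjusted p = 0.0199), a GTPase of the large subunit, and Rpusd3 (0.43, adjusted p = 0.0255), a pseudouridine synthase of the large-subunit RNA. None of the 28 was called in the other 2 comparisons, and their median with AdipoRon was -0.13. Of 15 translation factors tested, 1 was called, with AdipoRon: Oxa1l, which inserts new proteins into the inner membrane, fell (-0.29, edgeR adjusted p = 0.0466), and the median was -0.05. Of 20 genes of mitochondrial tRNA charging, 0 were called with AdipoRon and 2 fell with AdipoRonPEG5, Lars2, the leucyl-tRNA synthetase (-1.26, edgeR adjusted p = 0.00223), and Aars2, the alanyl-tRNA synthetase (-0.28, adjusted p = 0.0249). Lars2 was at 518, 596 and 583 CPM in vehicle, 425, 646 and 435 CPM with AdipoRon and 277, 170 and 262 CPM with AdipoRonPEG5, and was lower with AdipoRonPEG5 than with AdipoRon too (-1.09, edgeR adjusted p = 0.0136). Together the 20 genes summed to 894, 981 and 957 CPM in vehicle 1 to 3, and most of that was Lars2. Their median log2 fold changes were -0.06 with AdipoRon and -0.07 with AdipoRonPEG5.

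The 13 mRNAs that the mitochondrial ribosome translates were measured, whereas its protein products were not. With AdipoRonPEG5 against vehicle 1 rose and 1 fell, mt-Nd1 (log2 fold change 0.53, edgeR adjusted p = 0.00551) and mt-Nd3 (-0.39, adjusted p = 0.0297), both subunits of complex I, and mt-Nd3 was lower than with AdipoRon as well (-0.72, edgeR adjusted p = 0.00573). With AdipoRon against vehicle none of the 13 was called, and their median was 0.03. Together they took 3.85% to 4.60% of the counts in vehicle, 4.32% to 4.64% in AdipoRon and 4.67% to 5.29% in AdipoRonPEG5 libraries. The 2 mitochondrial ribosomal RNAs were not matched in the table. Of 11 genes that copy or transcribe mitochondrial DNA, 1 fell with AdipoRonPEG5, Peo1 (now Twnk), the helicase (-0.41, edgeR adjusted p = 0.00697), and none was called in the other comparisons. With each compound 10 of the 11 were below 0 against vehicle (medians -0.22 with AdipoRon and -0.20 with AdipoRonPEG5). Of 9 tested regulators of mitochondrial biogenesis, Myc rose with AdipoRonPEG5 (2.71, edgeR adjusted p = 0.00531) and with AdipoRon (2.26, adjusted p = 0.032), and Ppargc1b, a coactivator of nuclear genes for mitochondria, was lower with AdipoRonPEG5 than with AdipoRon (-1.05, adjusted p = 0.0271). Against vehicle 8 of the 9 were below 0 with AdipoRonPEG5 (median -0.15) and 6 with AdipoRon (median -0.03).

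Of 17 genes of mitochondrial protein import and quality control, which bring the members in from the cytosol or degrade faulty proteins, 2 fell with each compound and none was called between them. With AdipoRon these were Clpp, a matrix protease (log2 fold change -0.39), and Tomm22, an import receptor (-0.32). With AdipoRonPEG5 they were Tomm40, the outer membrane channel (-0.38), and Timm44, a part of the inner membrane import motor (-0.26). Over the 17 genes the medians were -0.14 with AdipoRon (15 below 0) and -0.09 with AdipoRonPEG5 (14 below 0).

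The partners that depend on mitochondrial translation and the ribosome of the cytosol were set beside the members. Of all genes tested, 1.4% were called lower with AdipoRon, and 9.55% higher and 7.63% lower with AdipoRonPEG5. Between the compounds 2.68% were called higher with AdipoRonPEG5. Of 36 nuclear subunits of complex I, 11 fell with AdipoRon (median -0.22), 6 fell with AdipoRonPEG5 (-0.13), and 1, Ndufa7, was higher with AdipoRonPEG5 than with AdipoRon (median 0.09). Of 42 nuclear genes of complexes II to V, 11 fell with AdipoRon (median -0.26), 8 fell with AdipoRonPEG5 (-0.17), and none was called between the compounds (0.04). Of 83 tested cytosolic ribosomal proteins, 11 fell with AdipoRon (median -0.30), 2 rose with AdipoRonPEG5 (0.09), and 47 were higher with AdipoRonPEG5 than with AdipoRon (0.40). All 3 groups thus had negative medians with AdipoRon, as did the members at -0.18. Against AdipoRon, the AdipoRonPEG5 median was highest in the cytosolic ribosomal proteins, next in the members (0.15) and lowest in complexes II to V, an order that was not tested.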

How the data were processed

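Liver RNA of 9 libraries was measured by RNA-seq. Per the file headers, the authors deposited raw counts for each gene and FPKM for the same libraries. The submitters' processing notes list HTSeq 0.6.1, STAR 2.5, TopHat, edgeR and DESeq2 without saying what each was used for. Genome build, annotation and strand setting are not given in the sources used here. FPKM served only to recover gene lengths (whole within 0.01 for 99.995% of values). Samples were grouped by their titles.

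Counts of all genes entered 1 edgeR 4.0.16 quasi-likelihood fit in R 4.3.3 (TMM, filterByExpr, robust set to FALSE, 3 group means, no replicate block), which kept 13151 genes. Benjamini-Hochberg adjustment ran over these genes in each of 3 comparisons, and a gene is called at an adjusted p of 0.05. CPM are TMM-scaled, SE are the log2 fold change over the root of the test's F, and intervals are at the 95% level. The steps were first tested on simulated data. Depths were 13942322 to 39473195 counts, so that 3 counts correspond to 0.076 to 0.215 CPM.

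Named members were those called in any comparison, the 6 highest and 6 lowest in each, the 4 highest and 4 lowest by level, and lettered paralogs. Mrpl12, Mrps12, Mrps27 and Mrps30 were added. Up to 3 called genes were named of each list from the mitoribosomal proteins with other names to protein import. No cell marker, cell cycle or cytosolic ribosomal gene is named, and of the respiratory chain only Ndufa7 among the nuclear subunits. The members and lists were chosen with earlier results of these data known. Of 204 listed genes 202 were found, 9 by an older symbol. GENCODE M21 gave overlaps and neighbours, and RefSeq (GRCm38.p6) the promoter windows.

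The alternatives tried were DESeq2 1.42.0, scaling by total counts or by RLE size factors, the filter left out or set to a mean of 1 CPM, voom of limma 3.58.1, robust dispersion, only the 2 groups compared, a replicate block, vehicle 1 thinned to 15795229 counts, a gene length trend removed, vehicle 3 and AdipoRonPEG5 1 left out together, and each library left out in turn. A length trend centred in each library was added after seeing the data.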

Additional observations from a re-analysis of the deposited data

How the results depend on the processing

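With 3 libraries a group the median 95% interval of a member spanned 0.38 to 0.39 on the log2 scale, and how much of this comes from depth was not separated from the spread between libraries. With vehicle 1 thinned to the depth of the others, 4 members were called for AdipoRonPEG5 and 6 for AdipoRon, each against vehicle, and 9 between the compounds. For AdipoRonPEG5 against vehicle the count of called members was 3 with total-count scaling (median 0.021), 3 with only the 2 groups compared, 11 with the length trend removed and 3 with that trend centred. For AdipoRon against vehicle it was 0 with total-count scaling (median -0.087), 4 with no filter, 1 with only the 2 groups, 4 without vehicle 3 and AdipoRonPEG5 1 together, and 2 with the centred trend (median -0.10). For AdipoRonPEG5 against AdipoRon it was 5 with the length trend removed (median 0.10) and 5 with it centred (median 0.087). The centring was chosen after seeing the data, and the cause of these moves was not tested. Leaving out each library in turn gave 0 to 4, 0 to 6 and 2 to 10 called members in the 3 comparisons in that order. The medians then ran from -0.066 to -0.043, from -0.22 to -0.16 and from 0.11 to 0.17, and members below 0 from 46 to 50, from 72 to 74 and from 10 to 20.

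Replicate numbers did not pair the libraries: same-number correlations ran from -0.27 to 0.077 over 9 pairs, 0 of them above 0.1. In both other groups at once, 0 libraries correlated best with their own number, though some did so in 1 other group. With the replicate block, 4 members were called for AdipoRonPEG5 against vehicle, 2 for AdipoRon against vehicle and 4 for AdipoRonPEG5 against AdipoRon, and Mrpl47 newly passed for AdipoRonPEG5 against vehicle (edgeR adjusted p = 0.0439).

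Of 111 log2 fold changes of named genes, 23 changed sign under some alternative, 76 times in all, with no call in either analysis. For AdipoRonPEG5 against vehicle, the changed values were 0.0013 (Mrps18a) with the filter set to a mean of 1 CPM and 0.000921 (Mrps18a) with limma-voom. They were -0.0054 (Mrpl16), -0.015 (Mrps18b), -0.00488 (Mrps18c) and -0.030 (Mrps22) with the length trend removed, and 0.0043 (Mrps18a) with it centred. They were 0.031 (Mrpl2), 0.029 (Mrpl51) and 0.082 (Mrps18a) with total-count scaling, 0.069 (Mrps18a) and -0.059 (Mrps18b) without vehicle 3 and AdipoRonPEG5 1, and 0.0054 (Mrps18a) and -0.0074 (Mrps18c) with vehicle 1 thinned. For AdipoRon against vehicle, Mrpl1 was at -0.0050 with DESeq2, -0.0012 with RLE size factors, -0.0013 with the 1 CPM filter and -0.00321 with limma-voom. With the length trend removed the values were -0.092 (Mrpl1), 0.032 (Mrpl16), -0.024 (Mrpl39) and -0.047 (Mrps22), and centred they were -0.012 (Mrpl1), 0.11 (Mrpl16), 0.059 (Mrpl38), 0.064 (Mrps12) and 0.018 (Mrps18b). With total-count scaling they were 0.085 (Mrpl16), 0.044 (Mrpl19), 0.028 (Mrpl3), 0.060 (Mrpl38) and 0.0087 (Mrps12), without vehicle 3 and AdipoRonPEG5 1 -0.036 (Mrpl1), -0.045 (Mrpl39) and 0.0011 (Mrps12), and with vehicle 1 thinned 0.0019 (Mrpl16). For AdipoRonPEG5 against AdipoRon, Mrps22 was at 0.0064 with the 1 CPM filter, 0.0018 with no filter and 2.31e-05 with only the 2 groups. With the length trend removed the values were -0.037 (Mrpl16), -0.026 (Mrpl34), 0.017 (Mrps22) and 0.011 (Mrps35), centred -0.051 (Mrpl16), -0.039 (Mrpl34) and 0.0031 (Mrps22), and without vehicle 3 and AdipoRonPEG5 1 -0.051 (Mrpl47).

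Leaving out each library in turn also changed signs. For AdipoRonPEG5 against vehicle the values ran from -0.027 to 0.078 (Mrpl16), -0.030 to 0.088 (Mrpl52), -0.058 to 0.038 (Mrps18a), -0.051 to 0.079 (Mrps18b), -0.051 to 0.054 (Mrps18c) and -0.039 to 0.090 (Mrps22). For AdipoRon against vehicle they ran from -0.038 to 0.064 (Mrpl1), -0.0895 to 0.057 (Mrpl16), -0.15 to 0.025 (Mrpl3), -0.047 to 0.079 (Mrpl39) and -0.037 to 0.092 (Mrps22). For AdipoRonPEG5 against AdipoRon they ran from -0.024 to 0.12 (Mrpl16), -0.15 to 0.031 (Mrpl3), -0.011 to 0.11 (Mrpl34), -0.058 to 0.18 (Mrpl47), -0.030 to 0.029 (Mrps22) and -0.13 to 0.044 (Mrps35). Of the other values of named genes, 2164 kept direction and side of the threshold, 184 were no longer past it and 18 newly passed it.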
